A study of Mus musculus with 32 samples.

Results

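The 8 genes described here are the kidney's sodium-phosphate cotransporters Slc34a1, Slc34a3, Slc20a1 and Slc20a2, the vitamin D receptor Vdr, the vitamin D enzymes Cyp27b1 and Cyp24a1, and klotho, Kl. They were chosen by name, as genes of phosphate, vitamin D and klotho biology, from the 22180 genes that array features naming exactly 1 symbol could measure, and each of the 8 has 1 such feature. Whole kidney from 32 male mice of strain 129 was hybridised to Affymetrix Mouse Gene 2.0 ST arrays, 1 array per mouse. The mice were Col4a3-/- (KO), which lack an alpha chain of the type IV collagen of the glomerular basement membrane and serve as a model of Alport kidney disease, or littermate Col4a3+/+ (WT), and were taken at 4 or 7 weeks of age with 8 mice in each of the 4 groups. No treatment or second allele is named in the labels, and the sex, strain and tissue were shared by all groups. Values are log2 signals, so a difference of 1 is a doubling of signal.

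As background, filtered phosphate is taken back in the proximal tubule by the sodium-dependent transporters NaPi-IIa (Slc34a1) and NaPi-IIc (Slc34a3) in the brush border, while the PiT transporters (Slc20a1 and Slc20a2) import phosphate in most cell types. The bone hormone FGF23 acts on kidney cells through FGF receptors that need klotho as co-receptor, and both FGF23 and parathyroid hormone reduce phosphate uptake. Cyp27b1 makes the active vitamin D hormone, Cyp24a1 degrades it, and the hormone acts through the nuclear receptor Vdr, which binds DNA with retinoid X receptors at paired hexamers.

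The upstream sequences of 4 of these genes are shown, because they set side by side both brush-border transporters, the PiT transporter that moved the other way and the activating enzyme. They come from RefSeq's annotation of GRCm38.p6, run 5′ to 3′ along the gene's own strand, and end at the first base before the gene's outermost annotated start. Capitals mark a hexamer of the kind found in nuclear receptor sites. The hexamers searched on both strands were the consensus AGGTCA, its variant AGTTCA, a further variant GGTTCA, and the common hexamer AGGTGA. In the Cyp27b1 sequence the capitals are AGGTGA read on the opposite strand.
Slc34a1, chr13:55399398-55399621, plus strand: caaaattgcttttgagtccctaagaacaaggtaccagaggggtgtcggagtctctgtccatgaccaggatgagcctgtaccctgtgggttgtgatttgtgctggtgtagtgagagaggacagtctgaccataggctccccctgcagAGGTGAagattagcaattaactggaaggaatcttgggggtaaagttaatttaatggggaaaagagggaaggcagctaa
Slc34a3, chr2:25234271-25234475, minus strand: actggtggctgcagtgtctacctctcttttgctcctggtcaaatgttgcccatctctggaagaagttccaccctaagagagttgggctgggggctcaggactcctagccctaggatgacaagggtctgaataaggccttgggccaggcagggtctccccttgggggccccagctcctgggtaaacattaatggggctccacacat
Slc20a1, chr2:129198523-129198772, plus strand: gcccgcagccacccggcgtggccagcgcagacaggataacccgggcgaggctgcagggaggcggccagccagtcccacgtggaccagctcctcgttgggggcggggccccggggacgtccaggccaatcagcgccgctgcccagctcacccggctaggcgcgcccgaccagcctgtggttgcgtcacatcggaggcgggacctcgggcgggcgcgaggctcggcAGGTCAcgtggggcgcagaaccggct
Cyp27b1, chr10:127047996-127048245, plus strand: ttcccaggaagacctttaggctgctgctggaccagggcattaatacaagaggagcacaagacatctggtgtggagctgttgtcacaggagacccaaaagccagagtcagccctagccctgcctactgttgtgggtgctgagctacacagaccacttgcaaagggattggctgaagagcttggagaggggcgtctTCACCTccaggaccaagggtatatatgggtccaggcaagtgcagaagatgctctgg

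The promoter table held windows of 300 bases for 6 of the 8 genes, with 2 windows for Slc20a1. Cyp24a1 and Slc20a2 had none. Slc34a1 held AGGTGA from -104 to -99 relative to its listed start, Slc20a1 held AGGTCA from -26 to -21, and Cyp27b1 held AGGTGA on the opposite strand from -56 to -51. The printed Slc34a3 run held none, while the bases between its end and the listed start held AGGTCA from -33 to -28 and, on the opposite strand, from -6 to -1. Slc34a1 held AGTTCA from -17 to -12 in the same kind of gap, Vdr held it from -91 to -86 on the opposite strand, and the window of Kl held no match. At least 1 of the 4 hexamers was present in 45.6% of all 32851 windows of this length, so their presence does not set these genes apart. A pair of hexamers on 1 strand spaced 3 bases apart, the arrangement named for the Vdr heterodimer, was in 0.0913% of all windows. It was in no window of the 6 members that had one. With so low a share over all windows this absence carries little weight, and it does not cover Cyp24a1 or Slc20a2. The Slc20a1 window printed in part here held 36 CG dinucleotides and 73.0% G and C, against a median of 7 CG per window, whereas those of Slc34a1, Slc34a3 and Cyp27b1 held 2 each. The other Slc20a1 window held 6 CG and 52.0% G and C, with AGGTCA on the opposite strand from -75 to -70 and AGGTGA from 5 to 10 after its start. These matches are descriptions of letters and not of bound sites.

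Before the members, the arrays were checked against their labels. Col4a3 signal was lower in KO than in WT by 0.99 on the log2 scale at 4 weeks (1.99-fold, adjusted p = 8.75e-05 by limma) and by 1.65 at 7 weeks (3.13-fold, adjusted p = 3.98e-12), with no overlap between the groups at either age. Which part of Col4a3 is deleted was not given in the sources used here. The 17 proximal tubule markers averaged 10.45 to 11.55 over the 32 mice, and the 6 adrenal cortex markers averaged 4.34 to 4.93, below the 5.44 that marks the 95th percentile of 1394 olfactory and vomeronasal receptor genes. Among the WT mice at 4 weeks, mice 5 and 8 had mean macrophage marker signals of 7.02 and 7.29, while the other 6 lay between 6.27 and 6.40. KO mouse 4 at 4 weeks had the highest injury marker mean of its group (8.15) and KO mouse 5 the lowest proximal tubule marker mean (10.97). Without these 4 mice, 0 members passed the test at 4 weeks, as with them. The count at 7 weeks stayed at 6, but these 4-week mice enter that comparison only through the shared spread, so it is no check of them. Comparisons that did change without them are given below.

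At 4 weeks no member passed the test between the genotypes. Across all genes, 0.0406% passed an adjusted p of 0.05 in limma at this age (0.0316% higher and 0.00902% lower in KO), and 0 of the 8 members did. The genotypes overlapped for every member, and 0.0496% of all genes showed no overlap. None of the 8 had an unadjusted p below 0.05, in limma or in a rank-sum test, while 2044 and 1599 genes did respectively. The differences, KO minus WT, ran from -0.12 for Cyp24a1 to 0.17 for Slc20a1. Precision differed between members. For Slc34a1 the 95% confidence interval of the difference was -0.23 to 0.18 and for Slc20a2 it was -0.21 to 0.11. For Cyp24a1 it was -1.01 to 0.77, which leaves room for a change within those ends. Such an interval does not give the smallest change that would have passed.

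At 7 weeks 6 of the 8 members differed. Slc20a1 and Cyp27b1 rose in KO kidney, and Slc34a1, Slc34a3, Kl and Vdr fell. Slc20a2 and Cyp24a1 did not pass the test. Of all genes, 32.3% passed at this age, 15.6% higher and 16.7% lower, so that 2 of 8 members higher and 4 of 8 lower is to be read against a large background. The median difference over the members was -0.24, against -0.062 over all genes. KO arrays at 7 weeks also had a higher median signal (6.33) than WT arrays (6.21). Centring every array on its median moved all differences at this age by -0.11 and changed the share of higher genes among those passing from 48.4% to 23.6%, while 2 members stayed higher and the number lower became 5.

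**Figure D1:**
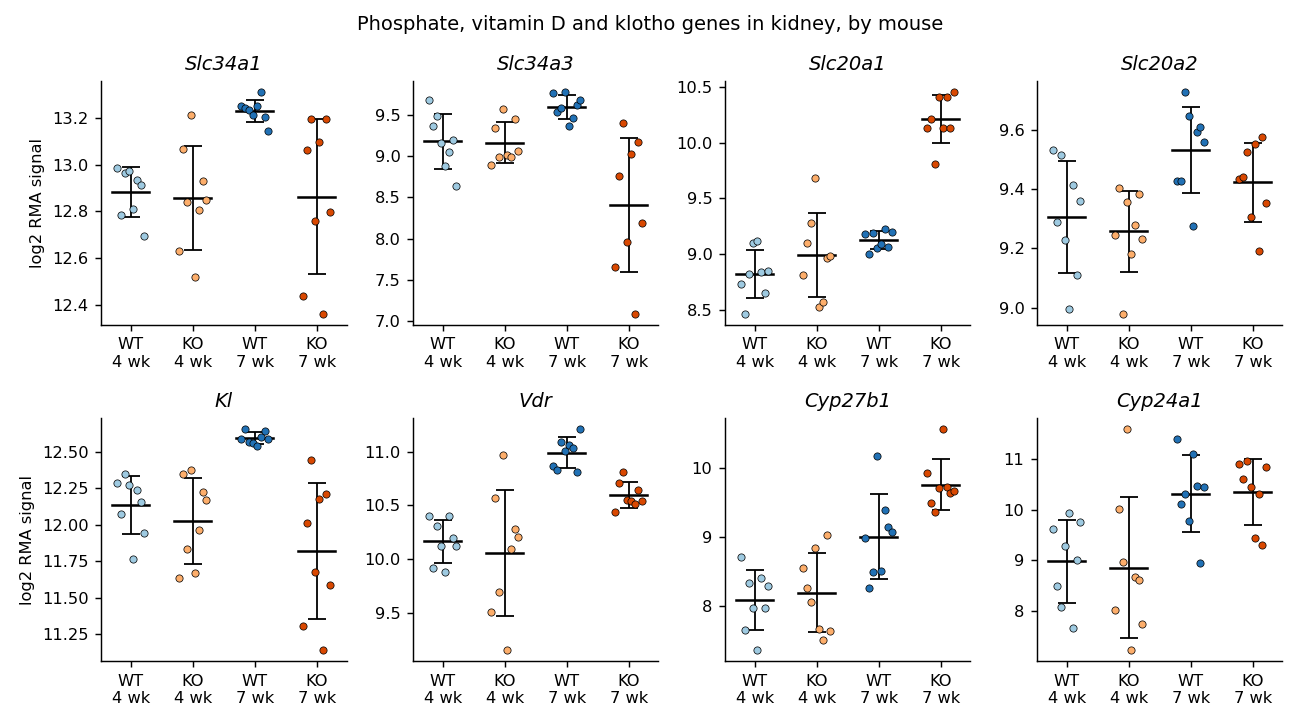
Log2 RMA signal of each of the 8 genes in every mouse (points), with the group mean (long bar) and SD (whiskers), for WT and KO at 4 and 7 weeks, 8 mice per group; each panel has its own scale. At 7 weeks the KO points of Slc20a1 lie above, and those of Kl below, all 8 WT points, and the KO points of Slc34a1, Slc34a3 and Kl spread widely while the WT points are tight.

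Slc34a1, NaPi-IIa, carries most of the phosphate taken back from the filtrate. In WT mice at 7 weeks its signal was 13.14 at the lowest, 13.24 at the median and 13.31 at the highest. In KO mice of that age it was 12.36, 12.93 and 13.19. KO mice 3 and 7 reached the WT range, and the other 6 of 8 lay below every WT mouse. The difference was -0.37 ± 0.10 (SE), 1.29-fold lower, with an adjusted p of 0.00501 by limma, and an exact two-sided permutation test over the 16 mice gave p = 0.00109. In RNA of a whole kidney, fewer cells of a type and less RNA per cell cannot be told apart, nor can more cells and more RNA per cell for the genes that rose.

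Slc34a3, NaPi-IIc, is the second brush-border transporter of the family. Its WT signals at 7 weeks ran from 9.36 through a median of 9.60 to 9.78. The KO signals were 7.09 at the lowest, 8.47 at the median and 9.41 at the highest. A single KO mouse, mouse 3, overlapped the WT range. The mean fell by 1.19 ± 0.22 (SE) on the log2 scale, which is 2.29-fold (adjusted p = 4.5e-05 by limma; exact permutation p = 0.000311). The SD over KO mice was 0.81, against 0.14 over WT mice. The SE rests on 1 spread shared by all 4 groups, so it does not reflect this unequal spread. Within the same arrays, the excess of Slc34a1 over Slc34a3 signal was 4.45 in KO and 3.63 in WT. The signal of Slc34a3 thus fell by more than that of Slc34a1 (a gap of 0.82, exact permutation p = 0.000466, adjusted over 8 such tests 0.00124). Whether signals as high as those of Slc34a1 follow the amount of RNA in proportion was not tested.

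Slc20a1, PiT-1, is the widely expressed importer and, in several cell types, a gene that responds to growth factors. WT signals at 7 weeks were 9.004, 9.14 and 9.23 at the lowest, the median and the highest. The corresponding KO signals were 9.81, 10.17 and 10.45. The groups did not overlap, as was the case for 13% of all genes at this age. The mean rose by 1.08 ± 0.12 (SE), 2.12-fold, with an adjusted p of 8.8e-09 by limma and an exact permutation p of 0.000155, the smallest that 16 mice allow. Against Slc34a1 on the same array it rose by 1.45 (exact permutation p = 0.000155, adjusted over 8 tests 0.000622). This value combines the rise of Slc20a1 with the fall of Slc34a1 in the same mice, so it is not a separate result.

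Slc20a2, PiT-2, is its close relative and did not follow it. WT signals at 7 weeks ran from 9.28 to 9.73 and KO signals from 9.19 to 9.58. The ranges overlapped in all but 1 KO mouse. The difference of -0.11 ± 0.08 (SE) did not pass (adjusted p = 0.304 by limma), with a 95% confidence interval of -0.27 to 0.050. When arrays were centred on their medians it became -0.22 and passed (adjusted p = 0.0212). The rise of Slc20a1 relative to Slc20a2 within arrays was 1.19 (exact permutation p = 0.000155, adjusted 0.000622), and this quantity does not move with centring.

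Kl encodes klotho, made in the distal tubule and also in proximal tubule cells. Its WT signals at 7 weeks were very even, 12.54 at the lowest, 12.59 at the median and 12.66 at the highest. In KO mice they were 11.14, 11.84 and 12.44. All 8 KO mice lay below all 8 WT mice, and 13% of all genes showed no overlap, in either direction, at this age. For Kl, mouse 3 stood at -0.15 and mouse 6 at -1.46 relative to the WT mean. The mean difference was -0.78 ± 0.14 (SE), 1.71-fold lower (adjusted p = 4.03e-05 by limma; exact permutation p = 0.000155).

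Vdr encodes the receptor for active vitamin D. At 7 weeks WT signals were 10.81, 11.02 and 11.21 at the lowest, the median and the highest. KO signals were 10.44, 10.55 and 10.81. Here 7 of 8 KO mice lay below all WT mice, and the SD was 0.12 over KO mice and 0.14 over WT mice. The difference was -0.40 ± 0.15 (SE), 1.32-fold lower. This call was close to the threshold in the fit over all 4 groups (adjusted p = 0.0469 by limma), whose shared spread includes the variable 4-week KO mice (SD 0.59). Leaving out single mice ended it in 11 of 16 fits, for WT mice 3, 4, 5, 6 and 8 and KO mice 1, 4, 5, 6, 7 and 8, with an adjusted p of up to 0.0855. Fitted without the 4-week arrays, the adjusted p was 0.000194, and the exact permutation p was 0.000311.

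Cyp27b1, the hydroxylase that makes the active hormone, went the other way. WT signals at 7 weeks were spread from 8.27 through a median of 9.04 to 10.18. KO signals ran from 9.36 through 9.68 to 10.57. The groups overlapped, with WT mice 4 and 6 inside the KO range and only KO mouse 5 above all WT mice. The mean rose by 0.75 ± 0.24 (SE), 1.68-fold (adjusted p = 0.0135 by limma; exact permutation p = 0.0106).

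Cyp24a1, the hydroxylase that breaks the hormone down, is a well known Vdr target. Its WT signals at 7 weeks ran from 8.94 through 10.37 to 11.39, and its KO signals from 9.30 through 10.52 to 10.95. The ranges overlapped almost fully, and the difference was 0.032 ± 0.44 (SE; adjusted p = 0.965 by limma). The 95% confidence interval, -0.86 to 0.93, leaves room for changes as large as those of Kl or Cyp27b1. The sign turned to -0.082 with arrays centred on their medians. The within-array difference Cyp24a1 minus Cyp27b1 was 1.30 in WT and 0.59 in KO, a shift of -0.72 that did not pass (exact permutation p = 0.176, adjusted over 8 tests 0.281).

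**Figure D2:**
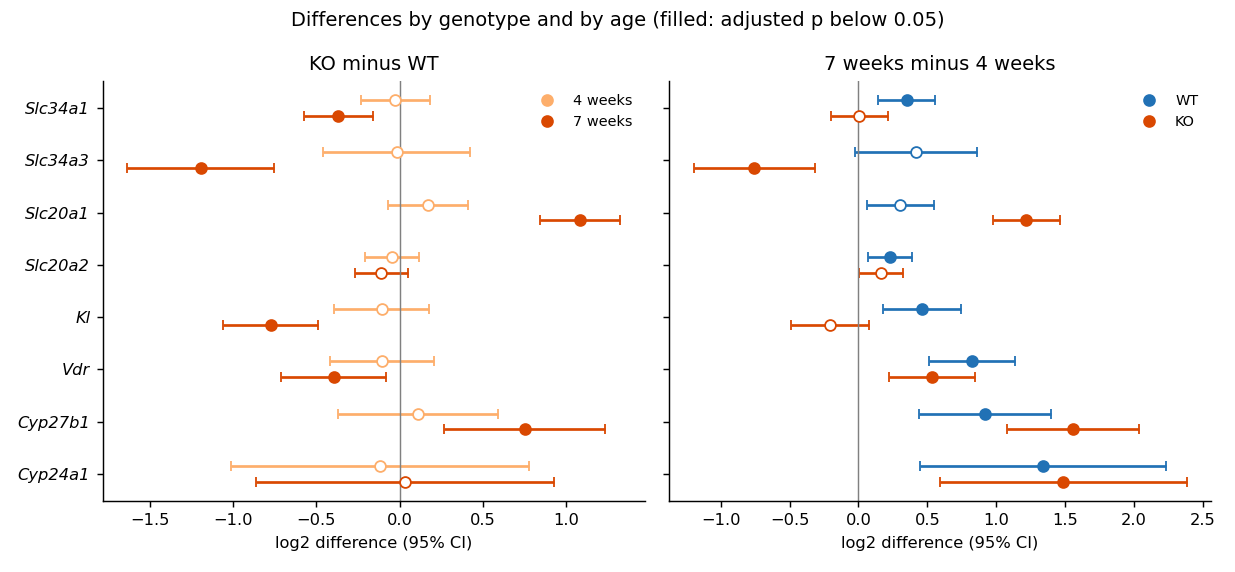
Log2 differences of the 8 genes with 95% confidence intervals, KO minus WT at 4 and 7 weeks on the left and 7 minus 4 weeks in WT and KO on the right; filled points have an adjusted p below 0.05. On the left all 4-week points are open and near 0, while at 7 weeks Slc34a3 stands at -1.19 and Slc20a1 at 1.08; on the right the KO points of Slc34a3 and Kl lie on the other side of 0 from the WT points.

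Whether the effect of genotype differed between the ages was tested directly. Of all genes, 17% passed this test, 9.8% with a more positive and 7.24% with a more negative effect at 7 weeks. Among the members, 1 of 8 passed upward and 2 of 8 downward. For Slc20a1 the effect was higher at 7 than at 4 weeks by 0.91 ± 0.17 (SE; adjusted p = 0.000214 by limma). For Slc34a3 it was more negative, at -1.17 ± 0.31 (SE; adjusted p = 0.00663), and for Kl likewise at -0.67 ± 0.20 (SE; adjusted p = 0.0164). Slc34a1 (-0.34, adjusted p = 0.104), Vdr (-0.29, adjusted p = 0.412) and Cyp27b1 (0.64, adjusted p = 0.203) passed at 7 weeks and not at 4, but the difference between the ages did not pass for them. With arrays centred on their medians, the value for Slc34a1 became -0.44 and passed (adjusted p = 0.0315), and the share of more positive genes among those passing went from 57.5% to 33.2%.

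With age, WT kidney gained signal for most of these genes. From 4 to 7 weeks, 29.5% of all genes passed in WT (15.4% rose and 14.1% fell), and 6 of the 8 members rose and 0 fell. Cyp24a1 rose by 1.34 (2.53-fold, adjusted p = 0.0195 by limma), Cyp27b1 by 0.92 (adjusted p = 0.00313), Vdr by 0.82 (adjusted p = 0.000116), Kl by 0.46 (adjusted p = 0.0116), Slc34a1 by 0.35 (adjusted p = 0.00875) and Slc20a2 by 0.23 (adjusted p = 0.0268). For Slc34a1, Vdr and Kl all older WT mice lay above all younger ones. Groups without overlap in either direction were found for 11.9% of all genes. Slc34a3 (0.42, adjusted p = 0.157) and Slc20a1 (0.30, adjusted p = 0.0511) did not pass. Both passed when only the WT mice were fitted, with adjusted p of 0.0112 and 0.00793. The fit over all 4 groups also takes in the spread of the KO mice, whose SD for Slc34a3 at 7 weeks was 0.81. Without the 4 mice named above, the rises of Kl (0.37, adjusted p = 0.0596) and Slc20a2 (0.19, adjusted p = 0.0952) no longer passed.

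In KO kidney, Slc34a3 fell with age and Kl and Slc34a1 did not rise beyond the threshold. Among all genes, 42.6% passed between 4 and 7 weeks in KO (21.4% rose and 21.3% fell), and 4 members rose while 1 fell. Slc20a1 rose by 1.22 (2.33-fold, adjusted p = 1.11e-09 by limma) and Cyp27b1 by 1.56 (2.94-fold, adjusted p = 2.31e-06), both without overlap between the ages, which 9.59% of genes showed. Cyp24a1 rose by 1.49 (adjusted p = 0.0062) and Vdr by 0.54 (adjusted p = 0.00506). Slc34a3 fell by 0.76 (adjusted p = 0.0049). Slc34a1 had a mean difference of 0.0068 (adjusted p = 0.964), with an SD of 0.22 at 4 weeks and 0.33 at 7 weeks, and Kl changed by -0.21 (adjusted p = 0.237). The rises of Vdr, Cyp27b1 and Cyp24a1 thus appeared in both genotypes, with values of 0.82, 0.92 and 1.34 in WT and 0.54, 1.56 and 1.49 in KO.

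The KO mice of 7 weeks were not alike. Mice 1, 4, 6 and 8 were the lowest 4 of the group for Slc34a1, for Slc34a3 and for Kl. Relative to the WT mean, mouse 6 had -2.51 for Slc34a3, -1.46 for Kl and -0.87 for Slc34a1. Mouse 3 had -0.19, -0.15 and -0.036 for the same genes. The mean of the 17 proximal tubule markers was lowest in the same 4 mice, at -1.05 relative to the WT mean in mouse 6, -0.82 in mouse 1, -0.64 in mouse 4 and -0.57 in mouse 8, and between -0.26 and -0.088 in the other 4. The same mice 1, 4, 6 and 8 had the highest means of the macrophage markers, 9.22 to 9.42 against 8.03 to 8.54 in the other 4, and of the injury markers, 9.55 to 9.74 against 8.72 to 9.18. The part of these markers in the spread of the members was not tested. Slc20a1 was raised in every one of the 8, by 0.68 in mouse 3 up to 1.32 in mouse 8. Vdr stood below the WT mean in every mouse, between -0.55 and -0.18, a narrower range than that of the transporters. Earlier results of these data had parted these mice into sets of 4, so no correlation was computed over them alone. Not every member followed that split, and Cyp24a1 was lowest in mice 7 (-1.02) and 5 (-0.87).

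**Figure D3:**
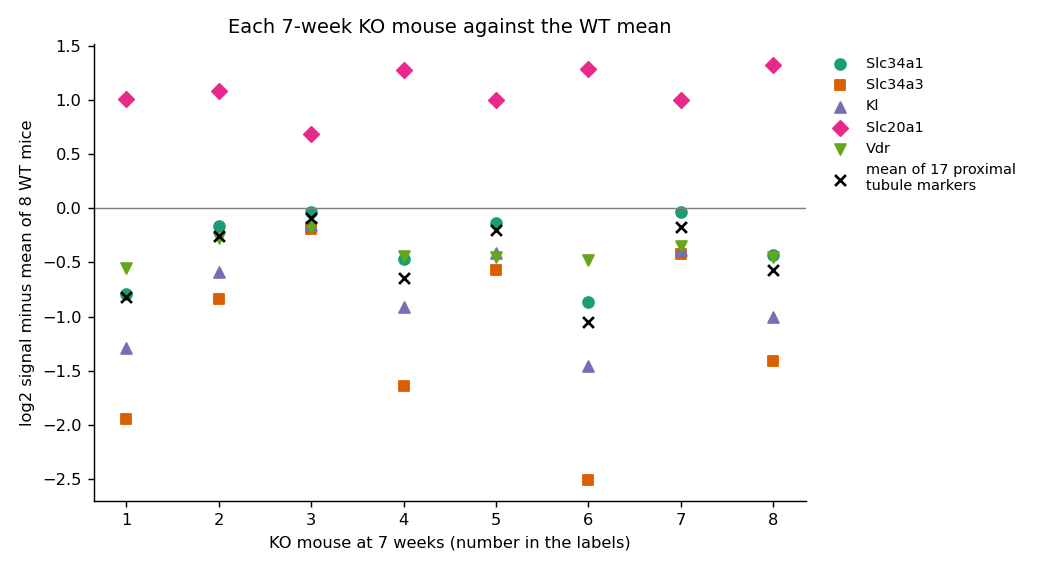
Each KO mouse at 7 weeks (horizontal axis, mouse number in the labels) against the mean of the 8 WT mice of that age (vertical axis, log2 difference, 0 is the WT mean) for Slc34a1, Slc34a3, Kl, Slc20a1, Vdr and the mean of 17 proximal tubule markers. In mice 1, 4, 6 and 8 the squares of Slc34a3 lie at -1.41 or lower, in the other mice at -0.84 or higher, and the diamonds of Slc20a1 lie above 0 in all 8.

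Marker lists of the cell types that a kidney sample can hold moved with genotype at 7 weeks. Of 17 proximal tubule markers, 13 fell and 1 rose, with a median of -0.47, and their mean ran from 10.45 to 11.42 in KO and from 11.46 to 11.55 in WT. The marker that rose was Slc5a1 (0.66), a glucose transporter. Of 14 markers of the thick ascending limb, distal tubule and collecting duct 7 fell and 0 rose. The thick ascending limb genes Umod (0.050), Slc12a1 (-0.21) and Kcnj1 (-0.083) were among those that did not pass, so the count does not describe each segment. All 16 macrophage and myeloid markers rose, with a median of 2.49 and a mean of 8.03 to 9.42 in KO against 6.32 to 6.58 in WT, as did all 15 injury markers (median 2.03) and 9 of 12 T and B cell markers. The part of these shifts in the members' differences was not tested. Of the adrenal cortex markers 0 of 6 passed, of the adipocyte markers 1 of 6 fell and of the skeletal muscle markers 1 of 7 fell. The adipocyte and muscle markers that fell had means below 5.44, in the low range of the arrays. With arrays centred on their medians, 2 of 6 adrenal cortex, 2 of 6 adipocyte and 3 of 7 muscle markers fell. So did 15 of 17 proximal tubule markers, while 6 of 12 T and B cell markers rose. With that centring 2568 of all 22180 genes rose and 8324 fell. At 4 weeks 1 of 15 injury markers rose, and no gene of the other lists passed, with the macrophage median at 0.36.

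Some pairs of members varied together among the younger mice, most of them in KO. In KO mice at 4 weeks, Vdr ran from 9.15 to 10.97 and Cyp24a1 from 7.23 to 11.59, the widest range of any member in any group. KO mouse 4 was highest and KO mouse 5 lowest for Slc34a1, for Vdr and for Cyp24a1. The order was not particular to the members. Mouse 4 was also highest and mouse 5 lowest for the means of lists described below. These were phosphate transport partners (9.15 and 8.26), vitamin D supply and receptor partners (9.22 and 8.57), and FGF23, klotho and PTH signalling (7.22 and 6.85). The part of this shared order in the correlations was not tested. Of the 5 pairs compared in each group, 4 had a Pearson r that passed over these 8 mice, and Cyp27b1 with Cyp24a1 did not (r of 0.524, exact permutation, adjusted p 0.344). Slc34a1 and Vdr had a Pearson r of 0.965 (exact permutation p adjusted over 15 relations 0.00409) and a Spearman rho of 0.976 (adjusted 0.00595), and r was 0.888 without mice 4 and 5. Slc34a1 and Kl had an r of 0.920 (adjusted p 0.00521 by exact permutation) and a rho of 0.952 (adjusted 0.00856), and r was 0.910 without those mice. Slc34a1 and Slc34a3 had an r of 0.833 (exact permutation, adjusted p 0.034) and a rho of 0.833 (adjusted 0.0577), and r was 0.817 without them. Vdr and Cyp24a1 had an r of 0.832 (exact permutation, adjusted p 0.034) that rested on mice 4 and 5, since it was 0.502 without them and rho was 0.714 (adjusted 0.173). In WT mice at 4 weeks only Slc34a1 and Kl passed, with an r of 0.816 (exact permutation, adjusted p 0.0352), a rho of 0.857 (adjusted 0.0536) and an r of 0.966 without mice 2 and 8. None of the 5 pairs passed in WT mice at 7 weeks.

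**Figure D4:**
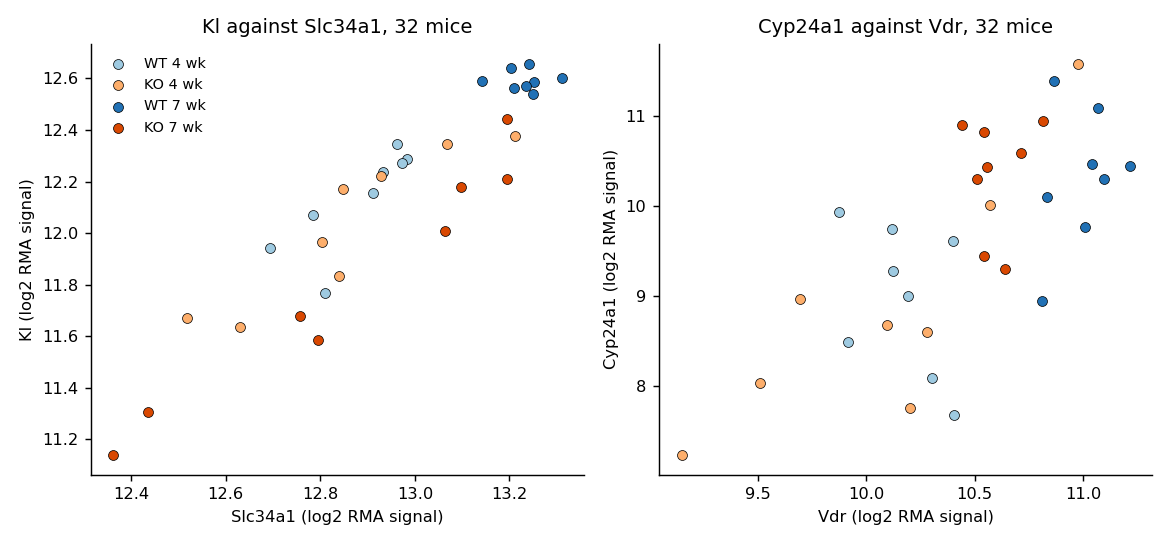
Log2 RMA signal of Kl against Slc34a1 (left) and of Cyp24a1 against Vdr (right), 1 point per mouse, 32 mice, coloured by group. On the left the points follow a band from KO mice of 7 weeks at the lower left to WT mice of 7 weeks at the upper right, with an r of 0.93 over all 32; on the right the band is loose, with KO mouse 4 at 4 weeks (11.59 for Cyp24a1) and KO mouse 5 (7.23) at its ends.

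The genes most like each member over all 32 mice are given as a description, with Pearson's r, since the points share group, age and array. Kl was most like Slc5a2, the proximal tubule glucose transporter (r = 0.973), then Abat (0.968) and Aldh4a1 (0.960). Slc34a3 was most like Fbp1, a gluconeogenic enzyme (0.968), Slc6a19, a neutral amino acid transporter (0.964), and Cryl1 (0.962). Slc5a2 and Fbp1 are also on the list of proximal tubule markers. Slc34a1 was most like Pcx, pyruvate carboxylase (0.954), Abat (0.951) and Dgat2 (0.947). Slc20a1 was most like Sbno2 (0.9747), the actinin gene Actn1 (0.969) and the transcription factor Stat3 (0.968). Vdr was most like the kinase gene Ptk2b (0.970), Camsap3 (0.968) and Mgrn1 (0.968), and within groups the r to Ptk2b was still 0.945. Cyp27b1 had looser likenesses, led by Tgm2 (0.874, and 0.542 within groups), Spint1 (0.871) and Vat1 (0.858). Cyp24a1 was most like Dusp6, a MAP kinase phosphatase (0.875), Hyou1 (0.847) and Hpcal1 (0.842), and Slc20a2 most like Sel1l3 (0.840), Fgfrl1 (0.829) and Tab1 (0.824). Between members, Slc34a1 and Kl had an r of 0.926 and Slc34a3 and Kl one of 0.898, while Slc20a1 and Slc34a1 stood at -0.064.

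Among partners of phosphate transport, 2 of 9 measured genes rose and 5 fell at 7 weeks, beside 15.6% and 16.7% of all genes. Their median was -0.34, and -0.45 with arrays centred on their medians. Slc34a2, the family member NaPi-IIb known from intestine and lung, ran from 6.21 to 6.93 in WT and from 8.05 to 9.995 in KO. It rose by 2.49 ± 0.19 (SE), 5.62-fold (adjusted p = 5.72e-12 by limma), without overlap, which 13% of all genes showed in either direction. The change was opposite in direction to that of Slc34a1 and Slc34a3. For Slc34a2 the effect was larger than at 4 weeks by 2.38 (adjusted p = 4.29e-07 by limma). Ank, a membrane protein of pyrophosphate and ATP release, rose by 0.48 (adjusted p = 8.57e-05). Pdzd3, a scaffold of the brush border, fell by 0.67 (adjusted p = 1.69e-05), and Xpr1, the phosphate exporter, fell by 0.34 (adjusted p = 0.000228). Ezr (0.20, adjusted p = 0.0932) and Slc9a3r2 (-0.13, adjusted p = 0.342), which tie transporters to the cytoskeleton, did not pass.

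Of 18 genes of FGF23, klotho and PTH signalling, 2 rose and 5 fell, a share near that of all genes, of which 32.3% passed. The median was -0.026, and -0.14 with arrays centred on their medians. The genes that rose were the proteases Adam10 (0.39, adjusted p = 1.5e-06 by limma) and Adam17 (0.36, adjusted p = 1.81e-05), both known to shed klotho from the cell surface. Fgfr3, an FGF receptor, fell by 0.68 (adjusted p = 2.4e-05), and Pth1r, the receptor for parathyroid hormone, fell by 0.49 (adjusted p = 0.000275). Sgk1 (0.19, adjusted p = 0.538) and Pth2r (-0.16, adjusted p = 0.182) did not pass. Pth2r had means of 4.52 in WT and 4.36 in KO. Several of the 18, among them Pth2r and Fgf23, had means below 5.44, in the low range of the arrays, which limits the count.

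Of 15 measured genes of vitamin D supply and receptor function, 9 fell and 0 rose, beside 16.7% and 15.6% of all genes. The median was -0.26, and -0.38 with arrays centred on their medians. Some of the genes that fell had KO means below 5.44, in the low range of the arrays, which limits the count. The list holds genes of the proximal tubule such as Lrp2 and Amn, and 13 of 17 proximal tubule markers fell as well, whose part in these counts was not tested. Rxra, the retinoid X receptor that partners Vdr, fell by 0.50 (adjusted p = 0.00204 by limma). Lrp2, the endocytic receptor megalin that takes up vitamin D with its carrier, fell by 0.47 (adjusted p = 0.00763), and Amn, which brings its partner cubilin to the surface, fell by 0.46 (adjusted p = 0.00108). The coactivator Ncoa2 fell by 0.35 (adjusted p = 0.00123). Cyp2r1, a vitamin D hydroxylase best known from liver (0.26, adjusted p = 0.0843), and Rxrb (-0.17, adjusted p = 0.0568) did not pass.

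Of 10 measured calcium transport genes that respond to vitamin D and PTH, 4 rose and 4 fell, beside 15.6% and 16.7% of all genes, with a median of 0.053 that became -0.062 with arrays centred on their medians. The calcium channel gene Trpv6 ran from 5.36 to 5.77 in WT and from 5.86 to 7.13 in KO, and rose by 0.88 ± 0.12 (SE; adjusted p = 5.44e-07 by limma). The calcium buffer S100g ran from 10.88 to 11.30 in WT and from 9.30 to 10.53 in KO, and fell by 1.13 ± 0.17 (SE; adjusted p = 1.9e-06). Calb1, the other cytosolic calcium buffer of the distal tubule, fell by 0.90 (adjusted p = 8.98e-07), and the calcium pump Atp2b1 rose by 0.40 (adjusted p = 1.21e-05). Atp2b4 (0.14, adjusted p = 0.241) and Cldn14 (-0.033, adjusted p = 0.749) did not pass. Cldn14 had means of 4.85 in WT and 4.82 in KO, in the low range of the arrays. At 4 weeks 0 genes of these 4 lists passed.

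**Figure D5:**
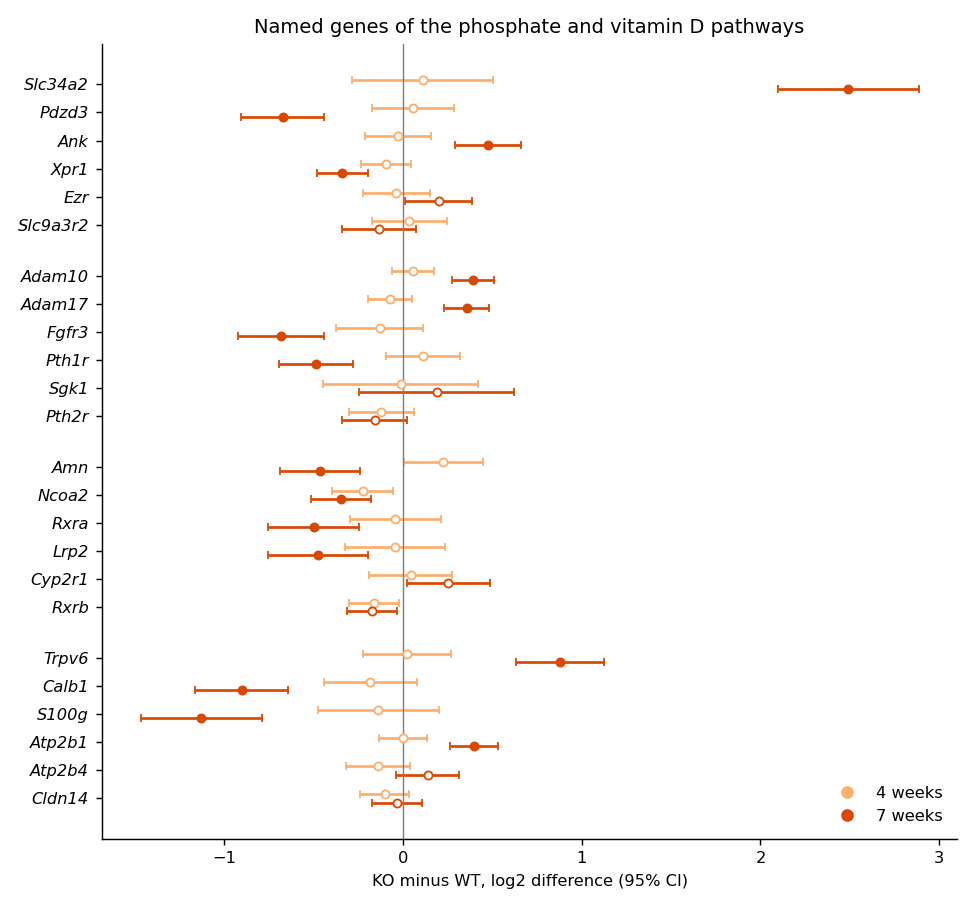
KO minus WT log2 differences with 95% confidence intervals at 4 and 7 weeks for genes of 4 lists, set apart by gaps: phosphate transport partners, FGF23, klotho and PTH signalling, vitamin D supply and receptor partners, and calcium transport; filled points have an adjusted p below 0.05. Slc34a2 stands apart at 2.49 at 7 weeks, Trpv6 and S100g lie at 0.88 and -1.13, and every 4-week point is open.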

How the data were processed

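RNA of whole kidney from 32 mice was measured, 1 array per mouse and 8 mice in each of 4 groups. The authors deposited log2 values at gene level, made by RMA in Affymetrix Expression Console, per the labels and the submitters' processing notes. The software version was not given in the sources used here. RMA scales all arrays to 1 distribution, so a shift shared by most genes is partly removed. Of 41345 features, 23521 name 1 gene symbol, 1814 several and 16010 none. Features naming exactly 1 symbol were kept, with the brightest of several for 1082 genes, leaving 22180 genes, none of them removed for low signal. Every table column was matched to a mouse by its label.

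Group differences, and the difference of genotype effects between ages, came from limma 3.58.1 in R 4.3.3, with 1 mean per group over all 32 arrays and Benjamini-Hochberg adjustment over all genes. Each gene had 1 spread shared by the 4 groups, so an SE or interval does not reflect unequal spread between groups. A gene passed at an adjusted p below 0.05, and the words rose and fell are kept for such genes. Exact permutation tests over mice, for differences and for correlations, were computed with numpy 2.4.6. Ranks, rank-sum tests and the adjustment over these tests used scipy 1.17.1. Residual correlation between mice of the same number ran from -0.27 to 0.23 over 48 pairs, so the numbers were not taken to pair mice. The fits were tested on simulated data.

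The 8 members and all lists were chosen with earlier results of these data known. The genes named are all members, Col4a3, for each member the 3 genes with the highest r, and from each pathway list up to 4 that passed with the smallest p and up to 2 that did not pass with the largest difference. The marker genes Slc5a1, Umod, Slc12a1 and Kcnj1 and the gene Fgf23 were named after their values were seen. Genes of the lists not analysed here include Pdzk1, Enpp1, Gc, Ncor1, Ggt1, Lck and Trac. Alternatives were other centring, other features per gene, a low-signal filter, other moderation, array weights, a replicate block, leaving out mice, fits of 2 groups, and rank and permutation tests. Precision depends on the number of arrays and on the spread of each gene between mice.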

Additional observations from a re-analysis of the deposited data

Results flagged for a closer look

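The effect of Col4a3 genotype differed between 7 and 4 weeks for 16 of the 33 genes named as members, as the label check or from the pathway lists, by limma's test of that difference, beside 17% of all genes. The pathway genes were named for their results at 7 weeks, so this count says nothing about the lists. Among the members the values were -1.17 for Slc34a3, 0.91 for Slc20a1 and -0.67 for Kl. Col4a3 itself had -0.65. Of the phosphate partners, Slc34a2 had 2.38, Pdzd3 -0.73 and Ank 0.50. In FGF23, klotho and PTH signalling, Adam10 had 0.34, Adam17 0.43, Fgfr3 -0.55 and Pth1r -0.60. Amn, of vitamin D supply, had -0.69. In calcium transport, Trpv6 had 0.86, Calb1 -0.72, S100g -0.99 and Atp2b1 0.39.

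In 7 of 132 groups of 8 mice, 1 mouse stood away from the rest by a gap, as a share of the group's whole range, above Dixon's 95% critical value. Chance alone marks about 1 in 20 such groups. The only member concerned was Cyp27b1, at 10.6 in KO mouse 5 at 7 weeks, with the next mouse at 9.92. The others were Sgk1 at 8.68 in KO mouse 7 at 7 weeks, Lrp2 at 12.8 in WT mouse 3 at 7 weeks, Trpv6 at 5.38 in KO mouse 2 at 4 weeks, Calb1 at 11.4 in KO mouse 4 at 4 weeks, Atp2b1 at 9.99 in WT mouse 1 at 7 weeks and Cldn14 at 5.21 in WT mouse 8 at 7 weeks.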

How the results depend on the processing

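The number of members passing stayed within 1.5 times its value under every alternative run. Leaving out each mouse in turn gave 0 at 4 weeks, 5 to 6 at 7 weeks, 3 for the difference between ages, 5 to 7 for age in WT and 5 to 6 for age in KO. The replicate block, in which mice share only a number, left 39 of 40 calls as they were and moved Vdr at 7 weeks (-0.40) to an adjusted p of 0.0508. The signs that turned all belonged to differences that never passed. Cyp24a1 at 7 weeks became -0.082 with arrays centred on their medians and -0.0011 with centring on the mean of brighter genes, and ran from -0.16 to 0.19 when a mouse was left out. The age difference of Slc34a1 in KO became -0.070 and -0.065 in the same order and -0.0014 with array weights, and ran from -0.042 to 0.078 with a mouse left out. Without a single mouse, differences at 4 weeks ran from -0.077 to 0.023 for Slc34a1, -0.096 to 0.053 for Slc34a3, -0.24 to 0.023 for Vdr, -0.010 to 0.21 for Cyp27b1 and -0.51 to 0.11 for Cyp24a1, and the difference between ages ran from -0.081 to 0.54 for Cyp24a1. The age difference of Slc20a1 in WT, which did not pass in the fit over all mice, passed in 6 alternatives (adjusted p 0.00793 to 0.045) and without WT mouse 4 or 5 of 4 weeks. The rise of Slc20a2 with age in WT was lost with centring on brighter genes (adjusted p = 0.0749) and without WT mice 5 or 7 of 4 weeks or 3 or 4 of 7 weeks. The age difference of Slc20a2 in KO, which did not pass in the fit over all mice, passed without KO mouse 6 of 7 weeks (adjusted p = 0.0465). Over all genes at 4 weeks, 9 passed, against 5 with array weights, 56 without the 4 mice named above, 1 in a fit of that age alone, 0 in the rank-sum test (1599 at an unadjusted p below 0.05) and 3 to 24 with 1 mouse left out. At 7 weeks 7167 passed, and 10892 with median centring. The cause of these changes was not tested. Signal near the low range, whose 95th percentile is 5.44, limits genes such as Fgf23 and Trpv6.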

Other observations

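Fgf23, the bone hormone whose co-receptor is klotho, stayed near the low range of the arrays in kidney. Its mean signal was 4.71 ± 0.15 (SD, n = 8) in WT and 4.70 ± 0.20 (SD, n = 8) in KO at 7 weeks, and the difference of -0.00432 did not pass (adjusted p = 0.983 by limma). With age in WT kidney, more genes rose than fell in 3 of the 4 pathway lists. Of these, 5 of 9 phosphate transport partners rose and 0 fell, 7 of 15 vitamin D supply genes rose and 0 fell, and 5 of 18 genes of FGF23, klotho and PTH signalling rose while 1 fell. Calcium transport genes were mixed, with 2 of 10 rising and 3 falling. In KO kidney 4 of 9 phosphate partners rose and 0 fell, 4 of 15 vitamin D supply genes rose and 1 fell, 5 of 18 signalling genes rose and 3 fell, and 5 of 10 calcium genes rose and 3 fell. With arrays centred on their medians the KO counts became 4 rising and 1 falling for phosphate partners, 2 and 1 for vitamin D supply, 5 and 4 for signalling and 5 and 3 for calcium genes, and in WT 2 calcium genes rose and 2 fell while the other 3 lists kept their counts. Among all genes, without this centring, 15.4% rose and 14.1% fell with age in WT, and 21.4% rose and 21.3% fell in KO. With it, 3714 of the 22180 genes rose and 2698 fell in WT, and 3906 rose and 7230 fell in KO.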
